A study of Mus musculus with 24 samples.

Results

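Gene expression in the medial prefrontal cortex (mPFC) of male C57BL/6 mice (C57BL/6J in the study's methods) was compared with that in the anterior cingulate cortex (ACC) in the sham condition, that is, after the same surgery without injury of the nerve. The comparison used 6 of the 24 RNA-seq libraries of the study, 3 from the sham male mPFC and 3 from the sham male ACC, chosen by the region, sex and surgery given in their labels. The mice were 3 months old, the tissue was taken 2 weeks after surgery with a puncher from brain slices, and tissue of 4 to 5 animals was pooled for a library. In the whole study, mice of both sexes received either the sham operation or spared nerve injury (SNI), a model of neuropathic pain in which branches of the sciatic nerve are cut, and both regions were sampled in every group. The male SNI libraries and the female sham libraries of both regions, 3 per group, entered here only where the region difference was read a second time in mice that the comparison had not used. The labels name no transgene or other genetic change in any group.

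The mPFC and the ACC are neighbouring areas of the frontal cortex that take part in the affective and cognitive sides of pain. Both are built from layered excitatory neurons, GABAergic interneurons and glia, and they differ in layer structure and in long-range connections. Neocortical areas also differ along gradients of transcription factors, adhesion molecules and ion channels, and primary sensory areas tend to hold more parvalbumin interneurons and more heavily myelinated axons than association areas. In a bulk punch, fewer cells of a type and less RNA per cell cannot be told apart.

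The 6 libraries held 25776315 to 27671322 counts (median 27011446), so that 3 counts, taken here as the floor, corresponded to 0.108 to 0.116 CPM (reads of a gene scaled to a common library total, with TMM factors). Values below are CPM, listed for replicates 1, 2 and 3 of each region, and replicate numbers carry no order. Excitatory and inhibitory neuron markers were abundant in every library, as befits cortex. Slc17a7, a vesicular glutamate transporter, lay between 1439 and 1812 CPM and Gad2, a GABA-synthesising enzyme, between 157 and 184 CPM. The third ACC library stood apart from the other 2. Its counts differed from theirs with a chi-square per gene of 20.1 and 17.6, against 2.71 between ACC replicates 1 and 2 and 3.18 to 8.26 between mPFC libraries. Its deviations from the ACC mean rose with the GC content of the gene (Spearman rho 0.75 over 14628 genes, which share the library). Those of ACC replicates 1 and 2 ran the other way (-0.61 and -0.54), which deviations from a shared mean in part force. Where the omission of this or another library ends a call or moves a count by more than 1.5 times, the value without it is given beside the result. The regions were also tabulated separately, and no extraction or sequencing dates were given in the sources used here, so a batch that coincided with region cannot be told apart from region.

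**Figure D1:**
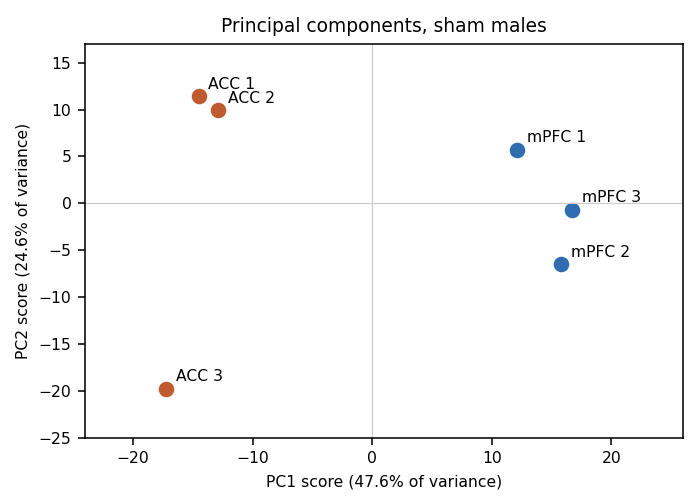
First and second principal components of log2(CPM + 1) in the 6 sham male libraries, with axes in component units and the share of variance on each label. Component 1 (47.6% of the variance) put the ACC libraries at -17.2 to -12.9 and the mPFC libraries at 12.1 to 16.7, and component 2 (24.6%) put ACC replicate 3 at -19.8, away from the others.

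Of 16831 transcripts tested, 2383 (14.2%) differed between the regions at a false discovery rate (FDR) under 0.1 in the quasi-likelihood test of edgeR. The mPFC was higher for 1255 (7.46%) and the ACC for 1128 (6.70%). At an unadjusted p under 0.05 there were 3853 (22.9%). The median difference over all transcripts tested was 0.011 on the log2 scale, and every log2 value below is mPFC over ACC, so that negative values mean more in the ACC. Most differences were small. The median size was 0.42 among the differing transcripts and 0.13 among all, and 67.1% of those higher in the mPFC and 68.5% of those higher in the ACC differed by less than 1.5-fold. Differences beyond 2-fold were found for 184 transcripts higher in the mPFC and 144 higher in the ACC. The 3 libraries of one region lay wholly above those of the other for 2339 of the differing transcripts (98.2%) and for 27.9% of all transcripts tested. Protein-coding genes differed more often than other annotated genes, 15.4% against 6.39%. Each test measured the spread between pools, and with 3 against 3 libraries the smallest p of an exact two-sided permutation test on 1 gene would be 0.1. The number of differing transcripts depended on single libraries. It was 4654 without ACC replicate 3, with 2287 of the 2383 (96.0%) among them, and 1152 and 1135 without mPFC replicate 2 or 3. The share of all transcripts that passed was 27.0% without ACC replicate 3 (13.6% higher in the mPFC and 13.4% in the ACC), 6.69% without mPFC replicate 2 and 6.61% without mPFC replicate 3, and 9.76% to 11.3% without one of the others. Counts of list members below are to be read against the 7.46% and 6.70% of all transcripts higher in the mPFC and in the ACC. Those given for such an omission are to be read against the shares of that omission.

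**Figure D2:**
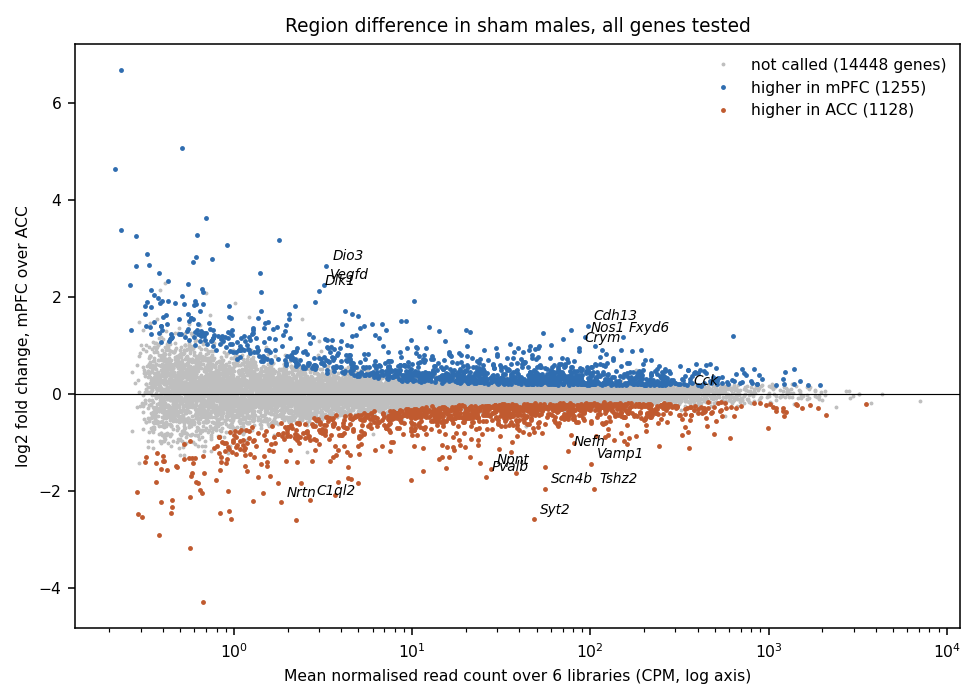
Log2 fold change of mPFC over ACC against mean CPM over the 6 libraries (log axis) for every transcript tested. Blue points are the 1255 transcripts higher in the mPFC and orange points the 1128 higher in the ACC at FDR under 0.1, grey points the others. Syt2, Scn4b, Tshz2 and Vamp1 stood out among well expressed genes of the ACC and Cdh13, Nos1 and Fxyd6 among those of the mPFC.

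Several of the ACC-enriched transcripts with the clearest separation are known from fast firing and fast transmitter release. Syt2 (synaptotagmin 2, a rapid calcium sensor of release), Vamp1 (synaptobrevin 1, a vesicle protein of the release machinery) and Scn4b (a sodium channel beta subunit linked to fast firing) were each lower in every mPFC library than in any ACC library. Dio3, the deiodinase that inactivates thyroid hormone, was higher in every mPFC library than in any ACC library. Libraries without overlap were a condition of the rules on p-value and fold change that named these genes. The promoters of these 4 genes are shown because the results on fast release and on thyroid hormone turn on them. The windows run from 250 bases before to 50 bases after the RefSeq start site in GRCm38.p6, all on the plus strand, at chr1:134646362-134646661 for Syt2, chr6:125215331-125215630 for Vamp1, chr9:45138374-45138673 for Scn4b and chr12:110278980-110279279 for Dio3. Capitals mark matches, on either strand, to TNAAGGTCA (the core of the element bound by monomeric orphan nuclear receptors), CCAAT (the CCAAT box) or TATAAA (the TATA box).
Syt2: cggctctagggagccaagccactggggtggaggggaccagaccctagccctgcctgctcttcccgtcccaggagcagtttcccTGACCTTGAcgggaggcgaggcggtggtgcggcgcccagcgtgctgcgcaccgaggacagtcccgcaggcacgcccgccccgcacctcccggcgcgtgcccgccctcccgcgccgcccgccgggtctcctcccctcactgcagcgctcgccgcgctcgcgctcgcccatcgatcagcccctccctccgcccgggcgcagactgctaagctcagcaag
Vamp1: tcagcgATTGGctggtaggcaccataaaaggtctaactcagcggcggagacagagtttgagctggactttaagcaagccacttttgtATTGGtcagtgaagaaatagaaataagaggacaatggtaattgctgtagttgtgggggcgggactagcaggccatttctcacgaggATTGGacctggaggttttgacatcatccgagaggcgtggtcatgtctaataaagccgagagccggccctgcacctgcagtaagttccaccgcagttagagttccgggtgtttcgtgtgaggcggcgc
Scn4b: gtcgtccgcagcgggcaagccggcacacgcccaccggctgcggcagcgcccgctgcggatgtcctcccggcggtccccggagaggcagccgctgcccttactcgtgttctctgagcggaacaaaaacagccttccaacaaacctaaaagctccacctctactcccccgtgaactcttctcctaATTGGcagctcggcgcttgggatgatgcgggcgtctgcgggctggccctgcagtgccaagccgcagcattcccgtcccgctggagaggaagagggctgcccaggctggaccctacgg
Dio3: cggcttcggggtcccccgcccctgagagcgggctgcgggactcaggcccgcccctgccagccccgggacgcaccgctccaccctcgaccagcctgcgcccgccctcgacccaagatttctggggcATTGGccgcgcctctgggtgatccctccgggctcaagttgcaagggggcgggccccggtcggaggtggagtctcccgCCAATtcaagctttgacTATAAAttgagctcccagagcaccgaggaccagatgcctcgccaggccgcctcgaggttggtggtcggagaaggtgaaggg
The single match in the Syt2 window was TNAAGGTCA at -167 from the start site on the minus strand, a motif found in 1.28% of 32851 promoter windows of the same length. The CCAAT box, present in 37.4% of windows, occurred at -244, -163 and -77 in Vamp1, at -67 in Scn4b, all on the minus strand, and at -125 on the minus and -48 on the plus strand in Dio3. Dio3 also held TATAAA at -31 on the plus strand, which 13.6% of windows hold. The window of Pvalb on chromosome 15 held none of the 3 motifs. A match describes letters in this window and is not a binding site. The motifs did not overlap one another in these windows, and 181 of the 266 genes named by the rules of the comparison had an entry in the RefSeq promoter table.

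Syt2 was measured at 86.2, 76.0 and 86.8 CPM in the ACC and at 20.1, 12.7 and 8.90 CPM in the mPFC. It was 5.96-fold higher in the ACC (log2 -2.58, SE 0.20, FDR 2.26e-05). The mPFC libraries spread widely among themselves, and none came near the lowest ACC library. Scn4b stood at 86.6, 90.0 and 89.5 CPM in the ACC and 28.2, 21.6 and 19.2 CPM in the mPFC (log2 -1.95, SE 0.11, FDR 7.64e-06). For Vamp1 the ACC libraries gave 144, 142 and 160 CPM and the mPFC libraries 61.7, 54.7 and 47.4 CPM (log2 -1.44, SE 0.09, FDR 7.91e-06). In both genes the groups were separated by a wide gap, and mPFC replicate 1 was the highest of its group, as in Syt2. Kcnab3, a cytoplasmic beta subunit of potassium channels, was 55.6, 51.6 and 66.7 CPM in the ACC and 19.7, 20.2 and 16.2 CPM in the mPFC (log2 -1.63, SE 0.11, FDR 1.27e-05). Pvalb, the calcium buffer that marks fast-spiking basket and chandelier interneurons, was 35.5, 38.7 and 44.7 CPM in the ACC and 14.3, 11.95 and 10.3 CPM in the mPFC. Its 3.25-fold difference (log2 -1.70, SE 0.12, FDR 1.31e-05) again left no overlap between regions.

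Across a list of 17 neurofilament and fast-axon genes, 16 were higher in the ACC and none in the mPFC, against 6.70% and 7.46% of all transcripts, with a median log2 of -0.83. The list was chosen with earlier results of these data known. It includes Syt2, Scn4b, Vamp1 and Kcnab3, which were also named for a small p-value or a large change. Its counts therefore describe the list and are not an independent test. The list holds genes from several cell types, and Syt2 and Kcnc1 also stood in the parvalbumin list. The neurofilament heavy and medium chains, which set axon calibre, were 99.4 to 110 CPM in the ACC against 40.8 to 50.0 CPM in the mPFC for Nefh (log2 -1.18, SE 0.08) and 320 to 337 against 141 to 173 CPM for Nefm (log2 -1.07, SE 0.08), both at FDR 1.31e-05. The axonal sodium channel Scn1a, best known from fast-spiking interneurons, was 187 to 215 CPM in the ACC and 96.7 to 116 CPM in the mPFC (log2 -0.97, SE 0.08, FDR 3.99e-05). Kcnc1, a Kv3 channel that allows rapid repolarisation, was lower in the mPFC (log2 -0.41, FDR 0.00822). Ina, the neuronal intermediate filament internexin, was the remaining member (log2 -0.17, FDR 0.145), and without ACC replicate 3 all 17 passed. For all 17 genes the 3 ACC libraries lay above the 3 mPFC libraries, against 27.9% of all transcripts in either direction. The summed level of the list was 4336 to 4605 CPM in the ACC and 2806 to 2954 CPM in the mPFC. Myelin markers, by contrast, moved with 1 library. Of 27 oligodendrocyte genes only Sox10, their lineage transcription factor, differed (log2 0.22, FDR 0.0584, and up to 0.270 without 1 library), whereas 14 were higher in the ACC, at a median of -0.16, without ACC replicate 3, where 13.4% of all transcripts were higher in the ACC.

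**Figure D3:**
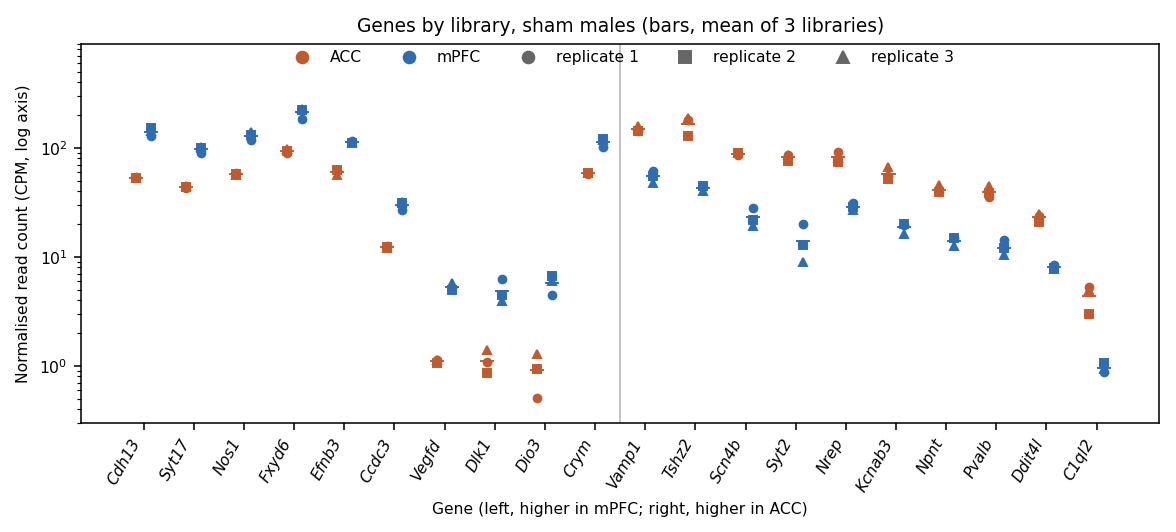
CPM (log axis) of 20 genes in each sham male library, mPFC in blue and ACC in orange, with marker shape for the replicate and a bar at the mean of 3 libraries. The 10 genes at the left were higher in the mPFC and the 10 at the right in the ACC. The regions overlapped in none of them, which was a condition of choice for those named by p-value or fold change.

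Of 7 parvalbumin interneuron markers 3 were higher in the ACC and none in the mPFC, namely Pvalb, Syt2 and Kcnc1. The others, the signalling peptides Tac1 and Pthlh among them, did not pass (log2 -0.43 to 0.25), and 1 was higher in the mPFC without ACC replicate 2. Gad1, the main GABA-synthesising enzyme, was 360, 354 and 364 CPM in the ACC and 271, 269 and 267 CPM in the mPFC (log2 -0.42, SE 0.06, FDR 7.02e-04), while Gad2 differed by -0.04 (SE 0.07, FDR 0.835). The regions thus separated for one enzyme and overlapped for the other. Of 10 genes in the list of Vip, Lamp5 and Cck interneurons 1 passed in each direction, and 8 were positive (median log2 0.18). When 1 library was left out, 0 to 2 of them were higher in the mPFC. Lamp5, a lysosome-associated membrane protein used as a marker of neurogliaform interneurons but also made by excitatory neurons, was 208, 204 and 230 CPM in the ACC and 117, 108 and 92.3 CPM in the mPFC (log2 -1.02, SE 0.09, FDR 4.01e-05). Cnr1, the cannabinoid receptor of Cck basket cells, was 214, 230 and 162 CPM in the ACC and 258, 269 and 286 CPM in the mPFC (log2 0.42, SE 0.11, FDR 0.0284), a call lost without mPFC replicate 2 or 3 (FDR up to 0.151). Of the 6 genes in the somatostatin list only Nos1, neuronal nitric oxide synthase, passed. It was measured at 58.3, 57.9 and 56.2 CPM in the ACC and 117, 132 and 139 CPM in the mPFC (log2 1.17, SE 0.07, FDR 7.64e-06). Sst itself overlapped between regions (log2 0.18, SE 0.10, FDR 0.357), and without ACC replicate 3 it was higher in the mPFC (log2 0.31, FDR 0.00331), when the list held 2 genes higher in the mPFC and 1 in the ACC.

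Layer markers separated the regions in opposite directions. Layer 4 is the granular input layer, thin or absent in these areas. Of 7 layer 4 genes 5 were higher in the ACC and none in the mPFC, against 6.70% and 7.46% of all transcripts. Their median log2 was -0.95 and their summed level 286 to 305 CPM in the ACC against 179 to 191 CPM in the mPFC. Rora, an orphan nuclear receptor, was 117, 112 and 96.5 CPM in the ACC and 60.4, 49.6 and 51.5 CPM in the mPFC (log2 -1.01, SE 0.09, FDR 6.15e-05). Rspo1, a secreted Wnt agonist, was 14.4, 12.2 and 19.2 CPM in the ACC and 5.16, 4.68 and 3.61 CPM in the mPFC (log2 -1.77, SE 0.18, FDR 9.24e-05). Scnn1a, an epithelial sodium channel subunit, Kcnh5, a potassium channel of the ether-a-go-go family, and Zmat4 differed by log2 -1.81, -0.95 and -0.59. No library of one region reached into the other for these 5 genes. Rorb, the transcription factor most used to define layer 4, overlapped fully (32.8, 34.9 and 28.5 against 34.2, 29.3 and 33.7 CPM, log2 0.02, SE 0.09, FDR 0.946), as did Whrn.

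Corticofugal layer markers were higher in the mPFC. Of 9 layer 6 corticothalamic genes 6 were higher there and none in the ACC (median log2 0.55), against 7.46% and 6.70% of all transcripts. Ntsr1, the neurotensin receptor that marks these cells, was 6.61, 5.67 and 6.52 CPM in the ACC and 13.6, 14.1 and 12.8 CPM in the mPFC (log2 1.11, SE 0.10, FDR 5.97e-05). Foxp2, a forkhead transcription factor, differed by 0.79 (FDR 0.00286), Rprm, a cell cycle inhibitor, by 0.73 (FDR 0.00102) and Hs3st4, a heparan sulphate sulphotransferase, by 0.32 (FDR 0.0106). Tbr1, a transcription factor of deep-layer neurons, did not separate (log2 -0.00, SE 0.06, FDR 0.993). Of 9 tested layer 5 extratelencephalic genes 5 were higher in the mPFC and 2 in the ACC (median 0.47). Fezf2 and Bcl11b, the transcription factors that specify subcerebral projection neurons, were both among the 5, at 55.3 to 56.3 CPM in the ACC against 71.0 to 84.6 CPM in the mPFC for Fezf2 (log2 0.47, SE 0.07, FDR 0.00211) and 72.4 to 86.2 against 108 to 111 CPM for Bcl11b (log2 0.48, SE 0.07, FDR 0.00158). The pair higher in the ACC was the transcription factor Pou3f1 (log2 -0.35, FDR 0.0272) and the prostaglandin transporter Slco2a1 (log2 -0.94, FDR 0.0618). Neither passed without mPFC replicate 2 or 3 (FDR up to 0.146 and 0.238), and Slco2a1 did not pass without ACC replicate 2 or 3 either.

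Members of the near-projecting list went both ways. Tshz2, a zinc-finger transcription factor, was 181, 129 and 190 CPM in the ACC and 43.9, 44.5 and 40.1 CPM in the mPFC (log2 -1.96, SE 0.13, FDR 7.84e-06). The spread within the ACC was wide, but its lowest library was still far above the mPFC. Lypd1, a modulator of nicotinic receptors, was 81.8, 84.2 and 77.4 CPM in the ACC and 142, 162 and 150 CPM in the mPFC (log2 0.90, SE 0.07, FDR 2.03e-05). Trhr, the receptor for thyrotropin-releasing hormone, was 2.23, 2.23 and 1.46 CPM in the ACC and 6.27, 6.76 and 6.35 CPM in the mPFC (log2 1.71, SE 0.17, FDR 9.24e-05). The upper-layer list was split as well, 2 of 10 genes being higher in the mPFC and 3 in the ACC (4 and 2 without ACC replicate 3, 2 and 1 without mPFC replicate 2). Otof (otoferlin, log2 0.96, FDR 2.02e-04) and Wfs1 (wolframin, 0.65, FDR 7.44e-04) were examples from the mPFC and Stard8 (-0.54, FDR 8.84e-04) from the ACC. Camk2a, a general excitatory marker, overlapped (log2 0.00). Of 8 general excitatory markers 2 were higher in the ACC and none in the mPFC, while 5 were positive (median 0.00). When 1 library was left out, 1 or 2 were higher in the ACC and 0 to 2 in the mPFC. Among these markers the widest gap was that of Slc17a6, the second vesicular glutamate transporter, at 34.6, 24.8 and 30.4 CPM in the ACC and 13.1, 12.1 and 11.3 CPM in the mPFC (log2 -1.30, SE 0.12, FDR 5.84e-05).

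**Figure D4:**
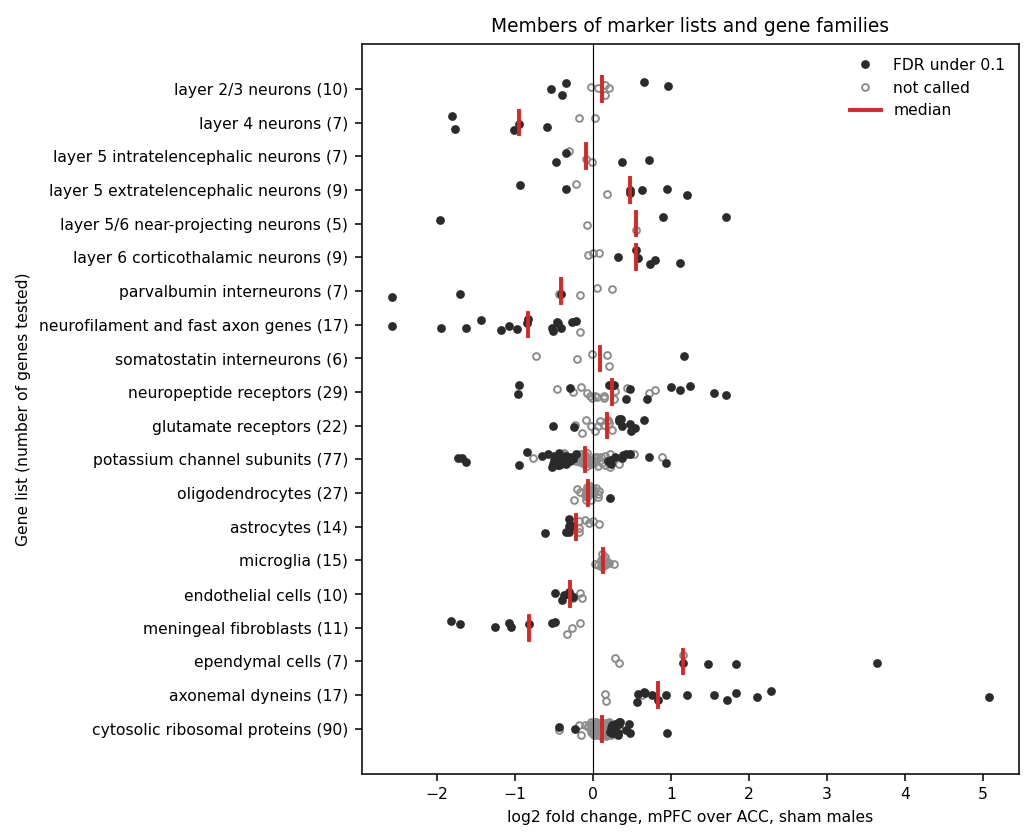
Log2 fold change of mPFC over ACC for the tested members of 20 marker lists and gene families, with the number tested in brackets. Filled points passed FDR under 0.1, open points did not, and the red bar is the median of the members. The layer 4, fast-axon and meningeal lists had medians of -0.95, -0.83 and -0.82, and the layer 6, axonemal dynein and ependymal lists 0.55, 0.83 and 1.15.

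The transcript with the smallest p-value was Cdh13 (T-cadherin, a lipid-anchored cadherin, at chr8:118283733-119324921 in GRCm38). It was measured at 54.4, 52.5 and 52.6 CPM in the ACC and 128, 151 and 144 CPM in the mPFC (2.66-fold, log2 1.41, SE 0.07, FDR 6.65e-06). The ACC libraries were almost equal, and every mPFC library was far above them. Syt17, a synaptotagmin family member, was 43.0, 43.7 and 44.6 CPM in the ACC and 89.5, 99.5 and 101 CPM in the mPFC (log2 1.14, SE 0.07, FDR 7.64e-06). Fxyd6, a regulator of the sodium pump, was 90.2, 92.8 and 98.0 CPM in the ACC and 184, 222 and 228 CPM in the mPFC (log2 1.17, SE 0.08, FDR 1.31e-05). The next in order were Ccdc3 (log2 1.28), Slc44a5, a choline transporter-like protein (1.38), Sla, the Src-like adaptor (1.5), and Efnb3, an ephrin (0.89). On the ACC side, Npnt, a matrix ligand of integrins, was 39.0, 39.6 and 45.2 CPM in the ACC and 15.0, 14.9 and 12.5 CPM in the mPFC (log2 -1.55, SE 0.09, FDR 7.64e-06). Nrep, Ddit4l, an inhibitor of mTOR signalling, and Hapln4, a link protein of perineuronal nets, differed by -1.51, -1.52 and -0.94, each at FDR 7.64e-06. The libraries of the regions overlapped for none of these genes, which was a condition of their choice by p-value.

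Apart from Syt2, the transcripts of largest fold change at a mean of 1 CPM or more were weakly expressed. Dio3 was 0.511, 0.939 and 1.28 CPM in the ACC and 4.50, 6.65 and 5.97 CPM in the mPFC (6.25-fold, log2 2.64, SE 0.27, FDR 1.03e-04). Dlk1, an imprinted non-canonical Notch ligand that lies in the same imprinted domain of chromosome 12, was 1.10, 0.861 and 1.39 CPM in the ACC and 6.30, 4.42 and 3.91 CPM in the mPFC (log2 2.12, SE 0.24, FDR 2.27e-04). Vegfd, a growth factor of lymphatic vessels, was 1.13, 1.06 and 1.14 CPM in the ACC and 5.20, 4.93 and 5.78 CPM in the mPFC (log2 2.25, SE 0.17, FDR 1.37e-05). In all 3 the lowest mPFC library was well above the highest ACC library, and libraries without overlap were a condition of their choice by fold change. Higher in the ACC were C1ql2, a secreted synaptic organiser (5.26, 2.97 and 4.98 against 0.885, 1.06 and 0.939 CPM, log2 -2.19, SE 0.25, FDR 2.25e-04), and Nrtn, the growth factor neurturin (2.12, 2.74 and 4.21 against 0.737, 0.402 and 0.789 CPM, log2 -2.23, SE 0.32, FDR 0.00119). C2, a complement protease, differed by -2.20 (FDR 0.00164). The 3 noncoding transcripts of this size were the lincRNA AC171111.1 (log2 2.49, FDR 4.05e-04) and the antisense transcripts Gm27177 (3.18, SE 0.75, FDR 0.0209) and Gm26673 (-2.60, FDR 8.34e-05). The strand setting of the counting was not given in the sources used here. Whether reads of the genes they overlap were counted for Gm27177 and Gm26673 is therefore not known. By gene span, introns included, 126 of the 266 named genes overlap another annotated gene on the same strand (54) or the opposite strand (106). Among them are Cdh13, Nos1, Syt2, Vamp1, Tshz2, Nefm, Scn1a, Slc44a5, Ccdc3 and Pcdh7. Overlap of exons was not examined, so how many of their reads could be shared is not known. Gm27177 was also uneven, at 0.737, 3.14 and 5.75 CPM in the mPFC, and was not called without mPFC replicate 3 (FDR 0.115).

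Genes of thyroid hormone handling were called in 6 of 9 cases, against 14.2% of all transcripts in either direction. Besides Dio3, the mPFC was higher for Crym, a cytosolic protein that binds the hormone (58.1, 59.2 and 58.6 CPM in the ACC against 102, 122 and 118 CPM in the mPFC, log2 0.95, SE 0.08, FDR 2.26e-05). It was also higher for Thra, the hormone's receptor alpha (555, 557 and 653 against 775, 873 and 862 CPM, log2 0.51, SE 0.08, FDR 0.00176). The hormone-responsive genes Hr, a nuclear corepressor, and Klf9, a transcription factor, were higher in the ACC. Hr was 44.4, 46.3 and 58.8 CPM in the ACC and 24.4, 22.4 and 18.0 CPM in the mPFC (log2 -1.20, SE 0.13, FDR 1.46e-04), and Klf9 differed by -0.30 (SE 0.07, FDR 0.0195, and 0.117 without mPFC replicate 3). None of the 6 called genes overlapped between the regions. The median of the list was 0.05, since its members moved in both directions, and without ACC replicate 3 the genes higher in the ACC were 4 in place of 2.

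Of 29 neuropeptide receptors tested 10 were higher in the mPFC and 3 in the ACC (median log2 0.24), against 7.46% and 6.70% of all transcripts. The 3 fell to 1 without mPFC replicate 2. Besides Trhr and Ntsr1, the tachykinin receptor Tacr1 was 0.876, 0.939 and 1.28 CPM in the ACC and 3.02, 3.11 and 3.01 CPM in the mPFC (log2 1.55, SE 0.21, FDR 6.78e-04). Mc4r, the melanocortin receptor known from appetite control, differed by 1.24 (FDR 7.55e-04) and Npy2r, a neuropeptide Y receptor, by 1.0 (FDR 0.00125). The regions did not overlap for any of these receptors, although the levels were low. Among the peptides themselves 4 of 17 were higher in the mPFC and 3 in the ACC (7 and 3 of 18 without ACC replicate 3). Grp, gastrin-releasing peptide, was 8.32, 6.96 and 9.12 CPM in the ACC and 17.9, 20.9 and 21.6 CPM in the mPFC (log2 1.31, SE 0.11, FDR 4.67e-05). Trh, the ligand of Trhr, reached 0.902 to 1.32 CPM in the mPFC and at most 0.391 CPM in the ACC (log2 2.11, SE 0.43, FDR 0.00913). Crh (corticotropin-releasing hormone) and Vgf, a secreted granule protein, were higher in the ACC (log2 -0.52 and -0.32, FDR 0.0123 and 0.0172).

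Voltage-gated and ligand-gated channels divided by subunit. Of 77 potassium channel genes tested 25 were higher in the ACC and 10 in the mPFC (median -0.10), with 32 and 15 of 78 without ACC replicate 3, and the 10 fell to 5 without mPFC replicate 2 or 3 and to 6 without ACC replicate 1. Kcng4, a modifier subunit, was lower in the mPFC by log2 -1.73 (SE 0.17, FDR 9.24e-05), whereas its relative Kcng1 was higher there, at 61.2, 70.0 and 62.8 CPM against 32.6, 35.4 and 33.4 CPM in the ACC (log2 0.94, SE 0.08, FDR 2.40e-05). Kcnn3, a calcium-activated channel of small conductance, was also higher in the mPFC (log2 0.72, FDR 1.10e-04). Sodium, calcium and HCN channels were higher in the mPFC for 12 and in the ACC for 11 of 39, and the 12 fell to 7 without ACC replicate 1 and to 6 without ACC replicate 2 or mPFC replicate 2 or 3. The beta subunit Scn4b was higher in the ACC and Scn3b (log2 0.62, FDR 1.58e-04) in the mPFC, together with the R-type calcium channel Cacna1e (0.62, FDR 1.25e-04) and the T-type channel Cacna1h (0.48, FDR 0.00123). Of 22 glutamate receptor genes 8 were higher in the mPFC and 2 in the ACC (median 0.18), with 12 and 4 without ACC replicate 3 and 1 higher in the ACC without any one of the other libraries. Grik3, a kainate receptor subunit, was 124, 135 and 128 CPM in the ACC and 184, 214 and 205 CPM in the mPFC (log2 0.65, SE 0.07, FDR 2.01e-04), and the AMPA subunit Gria1 was 359, 371 and 354 CPM against 479, 508 and 521 CPM (log2 0.48, SE 0.06, FDR 4.79e-04). Neither gene overlapped between regions. Of 14 GABA-A receptor subunits 2 were higher in the ACC, among them Gabrd (log2 -0.42, FDR 0.00728), and 1 in the mPFC, Gabrb1 (0.40, FDR 0.0151, and 0.104 without mPFC replicate 3). These counts were unsteady. The ACC was higher for 5 and the mPFC for 2 without ACC replicate 3, and the mPFC for 2 without ACC replicate 1 or 2. With a GC correction the mPFC was higher for 8 and the ACC for 4. Under that correction 26.4% of all transcripts passed in either direction, against 14.2% without it.

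Adhesion and guidance genes, which set and maintain connections, differed in both directions. Of 90 cadherins and protocadherins 15 were higher in the mPFC and 10 in the ACC (median -0.01). The 10 became 17 without ACC replicate 3 and 5 without mPFC replicate 2. Besides Cdh13, examples were Pcdh7, at 265, 285 and 229 CPM in the ACC and 170, 146 and 144 CPM in the mPFC (log2 -0.76, SE 0.09, FDR 3.36e-04), Pcdh17 (0.63, FDR 1.73e-04) and Pcdh8 (0.63, FDR 0.001). Semaphorins and plexins were higher in the mPFC for 9 and in the ACC for 5 of 29. The 9 became 14 without ACC replicate 3, 5 without ACC replicate 1 and 4 without mPFC replicate 2 or 3, and the 5 became 3 and 2 without mPFC replicates 2 and 3. Sema7a, a membrane-anchored semaphorin, was 211, 234 and 249 CPM in the ACC and 127, 134 and 122 CPM in the mPFC (log2 -0.86, SE 0.07, FDR 4.01e-05), and its receptor Plxnc1 went the other way, from 77.8 to 83.9 CPM in the ACC and from 113 to 122 CPM in the mPFC (log2 0.55, SE 0.06, FDR 3.22e-04). A similar opposition was seen for the axon guidance receptors Robo1 (log2 0.56, SE 0.07, FDR 4.12e-04) and Robo3, which was 15.5, 15.5 and 20.9 CPM in the ACC and 8.15, 4.68 and 4.395 CPM in the mPFC (log2 -1.59, SE 0.20, FDR 5.14e-04). Of 20 ephrins and their receptors 5 were higher in the mPFC, Efnb3 among them, and 6 in the ACC, such as Epha7 (log2 -0.44, FDR 0.0096). The 5 became 8 without ACC replicate 3, 3 and 2 without ACC replicates 1 and 2 and 1 without mPFC replicate 2 or 3, and the 6 became 3 without mPFC replicate 1 or 3. Genes of area patterning, transcription factors and guidance molecules, were called in 8 of 17 cases, 4 each way (2 in the ACC without mPFC replicate 3), led by Bhlhe22 (log2 0.75, SE 0.06, FDR 3.42e-05) and Tenm3 (a teneurin, 0.48, FDR 6.83e-04) in the mPFC and Etv1 (-0.47, FDR 0.0135) in the ACC.

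Of 42 collagen genes 6 were higher in the mPFC and 7 in the ACC (median -0.12), against 7.46% and 6.70% of all transcripts. The 6 fell to 3 without ACC replicate 1 or mPFC replicate 1 or 3, and the 7 to 4 without mPFC replicate 2 or 3. The collagen VI chain Col6a1 was 27.1, 29.1 and 38.8 CPM in the ACC and 80.7, 76.7 and 71.4 CPM in the mPFC (log2 1.27, SE 0.12, FDR 5.97e-05), and Col6a2 (log2 0.61, FDR 0.00405) and the membrane collagen Col23a1 (1.51, SE 0.15, FDR 1.10e-04) were likewise higher in the mPFC. The fibrillar chains Col1a1 (log2 -1.05, SE 0.21, FDR 0.00884) and Col3a1 (-1.25, SE 0.18, FDR 0.00117) were higher in the ACC, as was the non-fibrillar Col15a1 (-0.81, FDR 0.015). Col1a1 and Col3a1 stood in a list of 11 meningeal fibroblast markers, of which 8 were higher in the ACC and none in the mPFC (median -0.82). The summed level of these markers was 130 to 233 CPM in the ACC and 101 to 117 CPM in the mPFC, none was at 0 in any library, and the median was -0.60 without ACC replicate 3. The count of 8 fell to 5 without mPFC replicate 2 or 3. In the endothelial list 6 of 10 genes (median -0.29) and in the astrocyte list 7 of 14 genes (median -0.22) were higher in the ACC and none in the mPFC. Flt1, an endothelial receptor for VEGF, differed by log2 -0.32 (FDR 0.0231), and Slc4a4, an astrocytic bicarbonate transporter, by -0.31 (FDR 0.0176). Summed levels were 343 to 387 against 280 to 304 CPM for the endothelial list and 5638 to 5848 against 4805 to 5345 CPM for the astrocyte list. Both counts fell to 1 without mPFC replicate 2, where Flt1 and Slc4a4 had FDR 0.126 and 0.103, and the astrocyte count also without mPFC replicate 3. None of 15 microglial genes passed, all 15 were positive (median 0.13), and 6 passed without ACC replicate 3.

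Genes of motile cilia were higher in the mPFC. Of 17 axonemal dynein genes 14 were higher there and none in the ACC, against 7.46% and 6.70% of all transcripts. The median log2 was 0.83, and 9 passed without mPFC replicate 2. Dnah5, an outer-arm heavy chain, was 9.78, 9.19 and 7.94 CPM in the ACC and 13.7, 14.2 and 15.0 CPM in the mPFC (log2 0.67, SE 0.10, FDR 0.0014), and Dnah6 was 0.548, 0.352 and 0.696 against 2.40, 2.41 and 2.103 CPM (log2 2.1, SE 0.26, FDR 4.76e-04). Both were free of overlap, as were 16 of the 17, against 27.9% of all transcripts in either direction. Dnah11 had 0 to 2 counts per ACC library and 19 to 41 per mPFC library, which makes it at least 8.89-fold higher in the mPFC against a floor of 3 counts per library (FDR 0.00109). Ependymal cells, the ciliated lining of the ventricles, were represented by 7 tested markers of 8, and 4 of the 7 were higher in the mPFC (median 1.15, and 6 of 8 at 1.65 without ACC replicate 3). Their summed level was 7.28 to 9.59 CPM in the ACC and 14.1 to 15.7 CPM in the mPFC. Foxj1, the master regulator of motile cilia, was 4.02, 3.56 and 4.61 against 4.90, 5.08 and 4.88 CPM (log2 0.28, SE 0.14, FDR 0.248), and Ccdc153 had 2 or 3 counts per ACC library and was at least 11.6-fold higher in the mPFC (FDR 1.51e-04). The part of ependymal cells in the dynein difference was not tested.

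Markers of neighbouring structures were examined in the same way. Among 12 tested genes of striatal projection neurons 5 were higher in the mPFC (3 without mPFC replicate 1) and 1 in the ACC (0 without mPFC replicate 2 or 3, median 0.15), with summed levels of 253 to 261 CPM in the mPFC and 233 to 265 CPM in the ACC. The dopamine receptors in that list were Drd1, at 7.01, 6.88 and 7.39 CPM in the ACC and 12.1, 14.5 and 15.5 CPM in the mPFC (log2 0.98, SE 0.11, FDR 2.29e-04), and Drd2, at 0.949, 0.587 and 1.35 against 3.72, 2.96 and 3.57 CPM (log2 1.81, SE 0.26, FDR 0.00108). Neither receptor overlapped between regions. Monoamine and acetylcholine receptors as a family were called 6 times each way of 36 (3 in the mPFC without mPFC replicate 3), with Htr7, a serotonin receptor, higher in the ACC (log2 -0.98, SE 0.14, FDR 0.00109). No septal gene passed (4 tested, summed level 49.7 to 69.7 CPM in the mPFC and 44.9 to 53.2 CPM in the ACC), although 1 passed in each direction without ACC replicate 3. Of 4 claustral genes 1 passed in each direction, that of the ACC not without any one mPFC library. The part of striatal tissue in the Drd1 and Drd2 values was not tested.

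Housekeeping families differed by small amounts. Of 81 nuclear genes of oxidative phosphorylation 4 were higher in the ACC and none in the mPFC (median -0.05). The called share of 4.94% lay below the 14.2% of all transcripts and the 6.70% of all that were higher in the ACC. Without ACC replicate 3 the counts were 9 and 6, shares below the 13.4% and 13.6% of all transcripts. Without any one of the other libraries 0 or 1 gene was higher in the ACC. Of 12 mitochondrially encoded transcripts only mt-Co2, a subunit of cytochrome oxidase, passed, at 399, 356 and 395 CPM in the ACC and 746, 961 and 923 CPM in the mPFC (log2 1.19, SE 0.09, FDR 1.96e-05), while without ACC replicate 3 another 3 were higher in the ACC. Among 90 cytosolic ribosomal protein genes, a list drawn by symbol that also took in the kinase gene Rps6kl1 and the pseudogene-named Rpl10-ps3, 19 were higher in the mPFC and 2 in the ACC (median 0.11), and 48 and 4 without ACC replicate 3. Without any one of the other 5 libraries the 19 fell to between 3 and 9 and the 2 to 0. Rpl37a, a protein of the large subunit, was an example (47.4, 46.9 and 50.3 CPM in the ACC against 64.0, 60.7 and 55.6 CPM in the mPFC, log2 0.32, SE 0.07, FDR 0.0177). Of 14 immediate early genes, which follow recent neuronal activity, 3 were higher in the ACC and 2 in the mPFC, the latter 5 without ACC replicate 3, 1 without ACC replicate 2 and 0 without ACC replicate 1 or mPFC replicate 2 or 3. Egr1 was 364, 440 and 460 CPM in the ACC and 285, 309 and 350 CPM in the mPFC (log2 -0.42, SE 0.10, FDR 0.0179), and Egr3 differed by -0.38 (FDR 0.00256).

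The region difference was then read in libraries that had not entered the comparison. In the male SNI mice 3536 of 16872 transcripts differed between mPFC and ACC (21.0%), and in the sham females 4773 of 16746 (28.5%). Of the transcripts higher in the sham male mPFC, 1199 of 1231 tested (97.4%) had the same direction in SNI males and 1170 of 1232 (95.0%) in sham females, and 873 and 856 were also called there. Of those higher in the ACC, 1102 of 1118 (98.6%) and 1080 of 1120 (96.4%) kept their direction, with 878 and 717 called. Among all transcripts the same direction was found for 75.0% and 69.4%, and the fold changes over all transcripts correlated with a Spearman rho of 0.65 and 0.54, a description over genes that share libraries. In all 3 comparisons 1278 transcripts were called in one direction, 666 higher in the mPFC and 612 in the ACC.

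Syt2 differed by log2 -2.55 (FDR 1.22e-06) in SNI males and -1.99 (FDR 4.30e-04) in sham females, Pvalb by -1.59 in both (FDR 1.08e-05 and 9.79e-05), and Tshz2 by -1.89 and -1.68. Cdh13 differed by 1.05 (FDR 1.22e-06) and 1.40 (FDR 2.84e-05), and Dio3 by 2.19 (FDR 4.53e-05) and 2.51 (FDR 9.21e-05). These genes were thus separated in the same direction in each set of mice. The fast-axon list had medians of -0.72 and -0.55, the layer 4 list -0.70 and -0.85, the meningeal list -0.69 and -0.86 and the dynein list 0.53 and 0.50. Of the dyneins 7 of 14 tested passed higher in the mPFC in SNI males and 6 of 17 in sham females. Among all transcripts 1753 of 16872 and 2337 of 16746 were higher in the mPFC there. Dnah6 differed by 1.31 (FDR 0.00547) in SNI males but by -0.07 (FDR 0.941) in sham females, where Dnah11 and Ccdc153 did not pass either (0.29 and 0.68, FDR 0.816 and 0.494). Neither Dnah11 nor Ccdc153 was tested in SNI males. The ependymal list had medians of 0.31 in SNI males and 0.68 in sham females. Of its tested genes 1 of 4 and 1 of 7 were higher in the mPFC there. The layer 6 corticothalamic list had a median of 0.45 in sham females and -0.13 in SNI males. There Ntsr1 (log2 0.79, FDR 3.11e-04), Foxp2 (0.36, FDR 0.0418) and Sulf1, an extracellular sulphatase (0.28, FDR 0.0804), were higher in the mPFC, Tle4 and Garnl3 (-0.26 and -0.20, FDR 0.0162 and 0.0526) were higher in the ACC, and Syt6, Rprm and Hs3st4 did not pass (-0.15, 0.17 and -0.15). The oligodendrocyte list, whose median was -0.06 in sham males, was at -0.46 in SNI males and 0.05 in sham females.

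**Figure D5:**
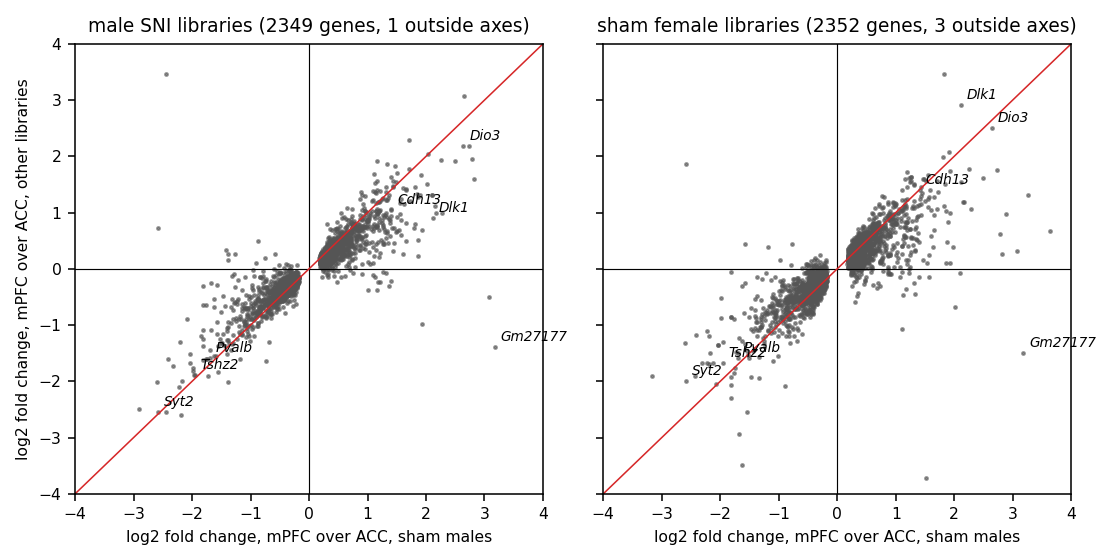
Log2 fold change of mPFC over ACC in sham males (horizontal axis) against the same quantity in male SNI libraries (left, 2349 transcripts) and sham female libraries (right, 2352), for the transcripts called in sham males. The red line marks equal values, 1 and 3 transcripts lie outside the axes, and Gm27177 is seen with opposite signs in both panels.

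Whether the region difference itself changed with surgery or sex was tested by interaction. No transcript of 17504 passed for region by surgery in males (0%, smallest FDR 0.685, edgeR quasi-likelihood test), with 559 at an unadjusted p under 0.05, while DESeq2 called 3 and the likelihood ratio test of edgeR 11. The shift of the layer 6 list between sham and SNI males therefore rests on no gene that passed. For region by sex in sham mice 2 of 17458 transcripts passed (0.0115%), Gm29216, a mitochondrial-like pseudogene, and mt-Co2, which was called in 4 of 12 omissions of single libraries, with 1272 at an unadjusted p under 0.05. For the other genes named above, a difference of the region effect between sexes was not detected. For Syt2 that interaction was -0.59 (SE 0.38, FDR 0.635) and for Scn4b -0.65 (SE 0.27, FDR 0.628), against 0.01 (SE 0.13, FDR 0.985) for Cdh13.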

How the data were processed

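RNA was sequenced from 24 libraries as paired reads. Per the study's methods and the submitters' processing notes, reads were trimmed with Trimmomatic 0.36, ribosomal reads were removed with Bowtie2 2.33, and the rest were mapped to GRCm38 with HISAT2 2.1.0 and counted per gene with HTSeq 0.9.1. The authors deposited raw counts for 33364 Ensembl genes, 1 table per sex and region, without normalisation. The strand mode was not given in the sources used here, and all identifiers were found in GENCODE mouse release 21.

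The 3 sham mPFC and 3 sham ACC male libraries (25776315 to 27671322 counts) were compared with edgeR 4.0.16 in R 4.3.3 by TMM scaling and the quasi-likelihood F-test (in its older form) at Benjamini-Hochberg FDR under 0.1, as in the study's methods. The low-count filter was filterByExpr (minimum count 10, minimum total 15), chosen here. SNI males and sham females were fitted likewise, and interactions over 12 libraries each. P-values measured the spread between pools of 4 to 5 animals. Alternatives covered DESeq2 1.42.0, other scalings and filters, a replicate block, a GC correction and the omission of each library. The scripts were tested on simulated data.

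Named genes were, in each direction, the 8 with the smallest FDR and the 5 with the largest fold change at a mean CPM of 1 or more (libraries not overlapping), the 4 genes the study named for this comparison, up to 6 called members of each list, up to 3 other members of lists with few calls, members of lists of 8 or fewer, and genes called in an interaction. Exceptions named after their values were seen are transcripts with opposite or floor-level values in the closing section, list members given for a range, layer 6 members called in SNI males, genes read again in other libraries for contrast and Gad2. The comparison, the lists and the named genes were chosen with earlier results of these data known, and some lists share genes. Some genes that this rule chose are not reported here and count only within their lists. Promoter windows came from RefSeq (GRCm38.p6).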

Additional observations from a re-analysis of the deposited data

Results flagged for a closer look

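Both transcripts that passed the region by sex interaction in sham mice are of mitochondrial sequence, and the test of the difference between the sexes is what singled them out. For mt-Co2, a cytochrome oxidase subunit encoded at positions 7013 to 7696 of the mitochondrial genome, the region difference was larger in males than in females by 1.12 on the log2 scale (SE 0.16, FDR 0.0595, edgeR quasi-likelihood test). With all 12 libraries scaled together, it stood at 401, 358 and 396 CPM in the male ACC and 745, 959 and 922 CPM in the male mPFC. The female libraries gave 467, 429 and 414 CPM in the ACC and 363, 480 and 529 CPM in the mPFC, so the regions overlapped in females and were apart in males. Over 12 mitochondrially encoded transcripts the median log2 was 0.01 in sham males, -0.52 in sham females and 0.46 in SNI males. In sham females 10 were higher in the ACC, in SNI males 8 in the mPFC, and none passed the other way. Of all transcripts 28.5% and 21.0% were called there in either direction.

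Gm29216, an unprocessed pseudogene on chromosome 1 (24615706 to 24616197), gave an interaction of 0.90 (SE 0.08, FDR 4.55e-04). It was 854, 795 and 833 CPM in the male ACC and 1104, 948 and 1009 CPM in the male mPFC, and 922, 875 and 877 CPM in the female ACC against 555, 596 and 610 CPM in the female mPFC. Its direction was opposite in the sexes without overlap in either. Of the 462 words of 31 bases in its 492-base transcript, 449 (97.2%) also occur in mt-Co1. Over most of its length its sequence therefore cannot be told apart from that of mt-Co1. In sham males mt-Co1 differed by log2 -0.15 (FDR 0.223, edgeR quasi-likelihood test), whereas Gm29216 differed by 0.31 (FDR 0.0153). When single libraries were left out, between 1 and 5 transcripts passed the interaction. Gm29216 was called in all 12 omissions. The call of mt-Co2 was lost in 8 of 12 (FDR up to 0.303), without any 1 of the female ACC libraries, female mPFC replicate 2, male ACC replicate 1 or 2 or male mPFC replicate 2 or 3. In 1 model of all 24 libraries neither was called (FDR 0.396 for both), and with a GC correction mt-Co2 was not (FDR 0.369).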

How the results depend on the processing

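The count of 2383 differing transcripts stayed within 1.5 times under DESeq2 (2133), other scalings (2378 and 2389), a stricter filter (2284), the likelihood ratio test (2746), the current quasi-likelihood method (2400), all 24 libraries in 1 model (3551) and FDR under 0.05 (1649). A GC correction gave 4436 (2251 higher in the mPFC, 2185 in the ACC). The single model put 1752 higher in the ACC. Without a low-count filter the split was 1176 to 1625 in place of 1255 to 1128 (42.0% higher in the mPFC). When 1 library at a time was left out the count ran from 1135 to 4654, with 573 to 2352 higher in the mPFC and 562 to 2302 in the ACC. In SNI males the 3536 ran from 2132 to 3838 and in sham females the 4773 from 2268 to 7084.

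The labels share replicate numbers between regions but do not say whether the same animals supplied both. Same-numbered libraries deviated together with correlations of 0.25, -0.11 and -0.04, and ACC replicate 3 with mPFC replicate 2 gave 0.28. The GC trends of single libraries enter these values, so they cannot decide whether the libraries were paired. The main test took them as unpaired. A replicate block gave 2245 transcripts, 2141 of them among the 2383, and with the GC correction 4446 (2246 and 2200). For the sex interaction (2 transcripts) the block gave 4, with Gm29216 but not mt-Co2 (FDR 0.18) among them.

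The sex interaction gave 8 with DESeq2, 275 without a filter, 24 with the likelihood ratio test, 4 with the GC correction (1 of the 2 shared) and 4 with that and the block (0 shared), 0 in the single model, 1 at FDR under 0.05, and 1 to 5 with a library left out. The surgery interaction (0 transcripts) gave 3, 128 and 11 with the first 3 of these and 0 to 1 with a library left out. Among values of named genes, 4455 kept direction and call, 179 lost the call, 92 gained it, 48 changed sign with no call on either side and 0 turned with a call. The causes were not tested. Depth limits transcripts near 3 counts per library.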

Other observations

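A few transcripts that differed between the regions in sham males were called in the opposite direction elsewhere. In SNI males these were Gm27177 (log2 3.18 in sham males, -1.39 in SNI males, FDR 0.0539) and the processed pseudogene Gm48128 (-2.58 and 0.73, FDR 0.0519). In sham females 11 transcripts were opposite and called. Besides Gm27177, Gm48128 and Gm29216, they included the small ribosomal protein genes Rpl35a (0.28 and -0.24, FDR 0.0242), Rpl39 (0.35 and -0.43, FDR 0.0224), Rps21 (0.32 and -0.21, FDR 0.0778) and Rps27 (0.25 and -0.30, FDR 0.0305). The translationally controlled tumour protein pseudogene Tpt1-ps3 also turned (0.34 and -0.49, FDR 0.00629), as did Clic6, Rab43 and Sbk1. None of these except Gm29216 passed the region by sex interaction.

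Choroid plexus genes, named here after their values were seen, were scarce and uneven. Of 6 tested, 3 were higher in the sham male ACC (1 without mPFC replicate 2) and 1 in the mPFC (0 without ACC replicate 1 or any 1 mPFC library), and Ttr, the transthyretin of choroid plexus, was 2.70, 0.665 and 0.879 CPM in the ACC and 0.405, 0.183 and 0.188 CPM in the mPFC (log2 -2.44, SE 0.58, FDR 0.0213, and 0.118 and 0.102 without mPFC replicates 2 and 3). In sham females Ttr differed by -8.77 (FDR 0.021) and in SNI males by 3.46 (FDR 0.106). The summed level of the choroid plexus list was 7.04 to 10.9 CPM in the sham male ACC and 7.16 to 8.18 CPM in the mPFC.

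Hepatocyte transcripts, none of which entered a test, summed to 0.220 to 12.6 CPM in the ACC libraries and to 0.150 to 0.365 CPM in the mPFC libraries. The lowest ACC library thus lay within the range of the mPFC.

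Several weakly expressed genes had no more than 3 counts in any library of one region. Against a floor of 3 counts per library, Ccdc180 was at least 4.60-fold, Fam216b at least 4.17-fold and Spag16, a protein of the cilium axoneme, at least 3.84-fold higher in the mPFC, and Mslnl at least 4.47-fold higher in the ACC. Fam216b, Spag16 and Mslnl overlap other annotated genes.

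Of 6 keratinocyte genes listed 3 were tested and 2 were higher in the mPFC, against 7.46% of all transcripts. These were Krt1 (1.94 to 2.19 against 3.00 to 3.31 CPM, log2 0.64, FDR 0.031, and up to 0.143 without ACC replicate 2 or mPFC replicate 3) and Lor (6.02 to 8.31 against 10.2 to 11.8 CPM, log2 0.60, FDR 0.0115). Lor was also called in sham females (1.0, FDR 0.00148). Krt10, the other tested gene, did not differ (log2 -0.03, FDR 0.957).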
